A study of Mus musculus with 54 samples.

Results

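Normal intestinal mucosa of wild type F1 hybrid mice was compared with the mean of the parental strains, to ask whether the methylated DNA captured from the hybrid equals the average of its parents. The hybrid is C57BL/6xPWD F1 (B6xPWD), and the parents are C57BL/6 (B6), a classical laboratory strain, and PWD/Ph (PWD), an inbred strain derived from wild Mus musculus musculus. All members are wild type for Apc, the tumour suppressor gene whose Min allele causes intestinal adenomas in other mice of the series. The comparison uses 10 of the 46 MeDIP libraries in the deposited table: 3 of the F1 (samples 11_3, 11_4 and 16_4), 4 of B6 (10_1, 16_8, 4_4 and 4_5) and 3 of PWD (11_1, 11_2 and 16_9). They were chosen by their labels alone, and values below are given in that order of samples. The mice were 15 to 19 weeks old. The sources used here do not state the direction of the cross, the sex of the mice or the animal behind each sample. P-values therefore measure only the spread between samples, which was estimated from all 46 MeDIP libraries, adenomas included.

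MeDIP (methylated DNA immunoprecipitation) pulls down DNA fragments with an antibody against 5-methylcytosine, and the sequenced fragments are counted along the genome. In mammals methylation falls mostly on cytosines followed by guanine (CpG); CpG-rich promoters are usually unmethylated, and methylation there goes with a silent gene. An F1 hybrid carries a single copy of each autosome from each parent, so a site where each copy keeps its parental state would be captured at the average of the parental levels. At imprinted genes methylation follows the parent of origin, in the parental strains as in the F1.

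Counts in windows of 250 bp on the 19 autosomes were compared, and also summed over a region at one end of each protein-coding gene, from 1000 bp outside to 500 bp inside it (gene end). This is the 5′ end for the 16457 of 20665 genes with a known strand and the more CpG-dense end for the other 4208. Levels are CPM, each count divided by the size of its library after scaling and expressed per 1000000 counts. All reads were aligned to the B6 reference, so a window that PWD lacks or whose reads map poorly, and a window with less methylation, cannot be told apart in these counts. The 10 libraries held 19894658 to 25730798 counts in all windows.

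The promoters of a few gene ends described below are printed here as RefSeq sequence of GRCm38.p6 (the same build as mm10). They run from 250 bases before to 50 after the start of the gene, 5′ to 3′ on the gene's strand. Each CG is in capitals because CG is the methylated motif. Nusap1 (chr2:119618048-119618347, plus strand) and Mvk (chr5:114444019-114444318, plus strand) show an F1 near the parental mean where the parents are far apart:
Nusap1: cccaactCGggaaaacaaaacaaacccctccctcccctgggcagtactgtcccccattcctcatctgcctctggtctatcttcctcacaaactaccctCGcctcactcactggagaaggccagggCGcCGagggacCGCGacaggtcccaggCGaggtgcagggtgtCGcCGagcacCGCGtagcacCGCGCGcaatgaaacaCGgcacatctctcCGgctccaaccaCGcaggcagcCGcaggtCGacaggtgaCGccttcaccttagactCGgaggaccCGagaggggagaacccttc
Mvk: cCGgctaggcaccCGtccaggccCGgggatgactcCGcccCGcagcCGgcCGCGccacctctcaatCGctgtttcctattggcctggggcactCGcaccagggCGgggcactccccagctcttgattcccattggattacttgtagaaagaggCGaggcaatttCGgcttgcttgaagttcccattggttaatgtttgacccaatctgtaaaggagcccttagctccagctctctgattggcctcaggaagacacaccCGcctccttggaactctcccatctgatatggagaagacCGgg
Atmin (chr8:116943143-116943442, plus strand), Elf3 (chr1:135258423-135258722, minus strand) and Krt7 (chr15:101412153-101412452, plus strand) belong to gene ends with an F1 below both parents:
Atmin: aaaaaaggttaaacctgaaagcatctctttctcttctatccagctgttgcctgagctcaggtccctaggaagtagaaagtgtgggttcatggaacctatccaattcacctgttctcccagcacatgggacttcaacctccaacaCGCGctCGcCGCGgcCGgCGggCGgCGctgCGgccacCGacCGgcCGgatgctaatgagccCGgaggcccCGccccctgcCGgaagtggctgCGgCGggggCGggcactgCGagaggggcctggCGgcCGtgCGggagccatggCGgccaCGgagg
Elf3: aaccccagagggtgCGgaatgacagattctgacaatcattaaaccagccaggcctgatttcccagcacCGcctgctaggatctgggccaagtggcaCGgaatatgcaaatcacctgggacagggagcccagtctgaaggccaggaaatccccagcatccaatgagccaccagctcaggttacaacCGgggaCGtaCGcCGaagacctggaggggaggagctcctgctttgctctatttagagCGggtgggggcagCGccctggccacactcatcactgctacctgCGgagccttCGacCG
Krt7: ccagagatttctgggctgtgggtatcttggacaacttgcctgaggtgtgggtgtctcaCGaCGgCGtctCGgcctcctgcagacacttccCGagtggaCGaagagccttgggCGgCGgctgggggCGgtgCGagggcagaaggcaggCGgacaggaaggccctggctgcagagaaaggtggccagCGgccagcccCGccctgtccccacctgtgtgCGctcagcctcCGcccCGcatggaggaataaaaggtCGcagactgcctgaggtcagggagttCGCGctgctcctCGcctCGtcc
These stretches hold 22 CGs at Nusap1, 15 at Mvk, 25 at Atmin, 12 at Elf3 and 21 at Krt7. Of the 31396 promoters in the table, 94.8% hold at least one CG, with a median of 7. At least as many CGs as in Atmin are found in 18.9% of promoters, as in Nusap1 in 23.7%, as in Krt7 in 25.4%, as in Mvk in 35.2% and as in Elf3 in 40.1%. CG is its own reverse complement, so both strands give the same count.

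Across the autosomes the F1 was close to the average of its parents. The parents differed at 230559 of 1172069 windows tested (19.7%) by edgeR's quasi-likelihood test at an adjusted p under 0.05, with 86121 higher and 144438 lower in PWD. Against the arithmetic mean of the parental CPM, a single window of the F1 passed the same threshold (8.53e-05%), and 43586 windows (3.72%) had an unadjusted p under 0.05, of which 19869 were higher and 23717 lower. No window passed as lying outside both parents (0%), with 6492 at an unadjusted p under 0.05; no other tool was run on the windows. A fit of only the 10 wild type libraries called 55 windows against the mean (1 higher, 54 lower). Against each parent by itself the F1 differed at 15950 windows from B6 (1.36%; 11801 higher, 4149 lower) and at 43218 from PWD (3.69%; 39650 higher, 3568 lower). The count against B6 lay between 6890 and 9364 when any of B6 10_1, 4_4 and 4_5 or any F1 library was left out, and the count against PWD was 21628 without PWD 11_1, 28265 without 11_2 and 26190 without 16_9. Without PWD 11_1 or 16_9, or without F1 11_4 or 16_4, no window passed against the parental mean, and without PWD 11_2 the number was 2. With the label number (the 16 of 16_4) as a factor, the parental mean could be tested only on the log scale, against the geometric mean, and 2522 windows passed (2035 higher, 487 lower). In that fit the F1 differed from B6 at 1544 windows (790 higher, 754 lower) and from PWD at 63654 (52640 higher, 11014 lower).

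The position of the F1 was expressed on a scale from 0 (the B6 mean) to 100 (the PWD mean), from CPM summed over the windows where the parents were called at least 2-fold apart. The parental libraries both chose these windows and set the scale. Over the 76944 windows that were higher in PWD, the F1 libraries stood at 49.9, 48.8 and 46.7, a mean of 48.5 ± 1.65 (SD, n = 3). Over the 137652 windows that were lower in PWD they stood at 46.6, 47.3 and 48.6, a mean of 47.5 ± 1.02 (SD, n = 3). Each F1 library thus lay within a few points of the midpoint in both sets. Leaving out parental libraries moved the means between 45.8 and 51.1 for the first set and between 46.3 and 50 for the second.

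The position was much the same at larger parental differences and on each chromosome. Where the parents were at least 8-fold apart, the F1 mean was 48.5 ± 1.27 over the 8597 windows where PWD was higher and 46.6 ± 0.693 over the 34287 where it was lower (SD, n = 3). By chromosome, the F1 mean ran from 47.2 on chromosome 11 to 50 on chromosome 14 for windows higher in PWD, and from 46.8 on chromosome 16 to 48.8 on chromosome 11 for windows lower in PWD. Single libraries stayed between 45.1 and 52.4 in the first set and between 45.6 and 49.5 in the second on every autosome. In the same F1 strain with the Apc Min allele, normal mucosa of 3 samples (11_6, 16_5 and 18_1) stood at 51.5, 47.5 and 45.7 for windows higher in PWD and at 46.9, 47.9 and 49.4 for windows lower in PWD. Those libraries set none of the means compared in the tests and entered only the filter, the scaling and the common estimate of the spread. The label of 11_6 conflicts between its MeDIP entry and its input entry.

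**Figure D1:**
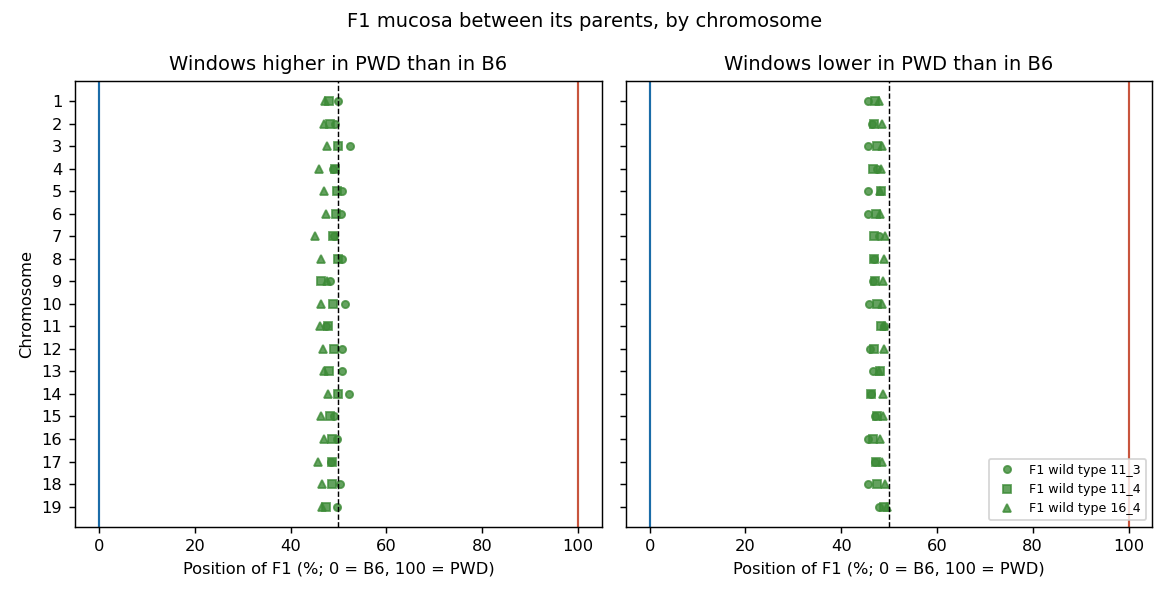
Position of each F1 wild type library between the parents on each autosome, in percent (0, blue line, is the B6 mean; 100, red line, is the PWD mean; dashed line, midpoint), over windows higher in PWD (left) and lower in PWD (right). Every point lies between 45.1 and 52.4 on the left and between 45.6 and 49.5 on the right.

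Among the windows tested, which had passed a filter on low counts across all 46 libraries, those with no count at all in a parent were also looked at. At the 628 windows with 0 counts in all 4 B6 libraries, the F1 libraries held 48.9, 47 and 47.7% of the summed CPM of PWD. At the 10130 windows with 0 counts in all 3 PWD libraries, they held 56, 55.6 and 54.8% of the summed CPM of B6. The F1 also gave 0 counts in 12 windows of the first set and 10 of the second. A window empty in a parent could pass the filter only through other groups, the F1 among them. These shares and counts therefore depend on the filter, and empty windows that failed it are not included.

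Single windows were far more scattered than these sums. Among windows higher in PWD, the middle 50% of single-window positions ran from 33.8 to 63, with a median of 47.7, and 73.4% lay between 25 and 75. Among windows lower in PWD, the middle 50% ran from 32.3 to 62.3, with a median of 48.1, and 72.6% lay between 25 and 75. A single-window position had a median standard error of 25.5 in the first set and 24.5 in the second, so most windows cannot be placed at this depth. Of the windows with parents at least 2-fold apart, 1507 were called intermediate, meaning that the F1 differed from both parents, lay between them and was not called against their mean; 365 of these were higher and 1142 lower in PWD. The other 76579 and 136510 were unresolved, and none was called as like B6, like PWD or outside both. The intermediate count was 249 to 285 when any F1 library was left out, 799 to 826 without any of B6 10_1, 4_4 and 4_5, 869 without PWD 11_1 and 987 without PWD 11_2.

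The average that the F1 matched was the arithmetic one. Where the parents were 8-fold or more apart, the median log2 ratio of F1 to the arithmetic mean was -0.05 where PWD was higher and 0.05 where it was lower, with 0.1 CPM added to each value. The same ratios to the geometric mean of the parents, the midpoint on the log scale, were 0.41 and 0.44. Where the parents were 2- to 4-fold apart, the ratios to the arithmetic mean were -0.03 and 0.01 and those to the geometric mean 0.09 and 0.13. An edgeR contrast against the geometric mean called 1612 windows, 1512 of them higher in the F1.

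At gene ends, 12046 passed the filter on low counts, and the parents differed at 1430 of them (11.9%; 778 higher, 652 lower in PWD). The F1 differed from B6 at 238 (1.98%; 160 higher, 78 lower) and from PWD at 192 (1.59%; 101 higher, 91 lower). The direction of these splits depended on the settings. Between the parents, scaling on the gene ends themselves gave 710 higher and 755 lower in PWD, scaling apart in classes of CpG density 742 and 800, total counts 694 and 707 and DESeq2 505 and 539. For the F1 against PWD, these settings gave 121 and 65, 130 and 61, 105 and 73 and 70 and 22. More gene ends were lower in the F1 than were higher with median-of-ratios scaling (100 and 106), the newer quasi-likelihood fit (103 and 136), only the 10 wild type libraries (122 and 192) and the label number as a factor (174 and 290). Of the gene ends with parents called at least 2-fold apart, 42 were intermediate (34 higher and 8 lower in PWD), 1 was called as like B6 and the rest were unresolved. Positions of the 42 ran from 28.3 to 69.7, with a median of 45.8. The number of intermediate gene ends was 12 without F1 11_3, 21 without 11_4 and 13 without 16_4, and 20, 25 and 25 without PWD 11_1, 11_2 and 16_9. The count against B6 was 125 without F1 11_4 and 139 without F1 16_4; the count against PWD was 73, 127 and 109 without PWD 11_1, 11_2 and 16_9 and 111, 119 and 95 without F1 11_3, 11_4 and 16_4.

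Nusap1, which encodes a microtubule-binding protein of the mitotic spindle, was nearly free of captured DNA in B6 at its 5′ end. It gave 0.176, 0.241, 0.251 and 0.221 CPM in B6, 6.31, 5.55 and 5.86 in PWD and 2.49, 3.28 and 2.79 in the F1. The groups did not overlap, and the F1 was at position 46.3 ± 7.06 (SE). By edgeR the F1 was above B6 by 3.65 ± 0.3 (log2, SE; adjusted p = 2.14e-14) and below PWD by 1.05 ± 0.21 (adjusted p = 0.0015). The level sits on the CG-rich promoter printed above: the window chr2:119618001-119618250 held 0.0116 CPM in B6, 3.3 in PWD and 1.58 in the F1. The gene shares its windows with Oip5, a centromere protein gene on the other side of the same region, which was at position 46.5.

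Mvk, which encodes mevalonate kinase of sterol synthesis, had, with Mmab, the highest levels of the intermediate gene ends. In B6 it gave 0.044, 0.0483, 0 and 0.133 CPM, in PWD 21.1, 17 and 19, and in the F1 7.89, 10.5 and 8.14. The F1 stood at 46.3% of the way to PWD and was below PWD by 1.1 ± 0.26 (log2, SE; adjusted p = 0.00968, edgeR). Mmab, whose product processes vitamin B12, shares these windows, with means of 21.3 CPM in PWD and 9.95 in the F1. Other CG-rich regions shared by a pair of genes were at positions 47 and 46.9 (Ints13 and Fgfr1op2), 50.8 and 48.5 (the purine synthesis genes Ppat and Paics) and 36.8 and 39.9 (Gm4925 and Arl1).

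Not every intermediate gene end sat at the midpoint. Rpl28, a ribosomal protein gene, gave 0.44, 0.579, 0.402 and 0.796 CPM in B6, 3.82, 3.73 and 3.23 in PWD and 1.06, 1.6 and 1.66 in the F1. All 3 F1 libraries lay nearer to B6, at position 29.1 ± 7.11 (SE), but the difference from the parental mean did not pass (adjusted p = 0.726, edgeR). The call of Rpl28 against B6 was lost with the label number as a factor (log2 1.26, adjusted p = 0.15, edgeR). It was also lost with a region of 2000 bp either side (log2 0.445, adjusted p = 0.335). Trim25, a ubiquitin ligase of antiviral signalling, was at 42.6, Hyou1, a chaperone of the endoplasmic reticulum, at 43.2, and Myd88, the adaptor of Toll-like receptors, at 36.8. Mat2a, which makes the methyl donor S-adenosylmethionine, was at 30.5, with means of 0.07 CPM in B6, 1.97 in PWD and 0.647 in the F1. None of these passed against the parental mean.

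Fewer gene ends were lower in PWD. H2-T24, a non-classical class I histocompatibility gene, gave 2.51, 1.35, 2.21 and 2.03 CPM in B6, 0 in every PWD library and 0.831, 0.888 and 0.899 in the F1. The F1 values lay close together at position 57 ± 7.47 (SE), below B6 by 1.21 ± 0.24 (log2, SE; adjusted p = 0.00111, edgeR). With the label number as a factor the log2 difference from B6 was only -0.442 (adjusted p = 0.699, edgeR). With F1 Apc Min normal mucosa in place of wild type it was -0.817 (0.0541). Scgb1b3, a secretoglobin gene, gave 1.19, 1.4, 1.05 and 1.5 CPM in B6, 0.0788, 0.0933 and 0.172 in PWD and 0.692, 0.399 and 0.449 in the F1, at position 66.1. Its call against B6 was lost without F1 11_4 or 16_4 (adjusted p = 0.0828 and 0.0604), and that against PWD without PWD 11_1 or 11_2 or F1 11_3 (0.115, 0.0577 and 0.126). The label number as a factor also ended its call against B6 (0.169, edgeR), and a region of 2000 bp either side ended both calls (0.0525 and 0.401). Tmem267 gave 4.97, 5.5, 8.03 and 12.3 CPM in B6, 1.46, 1.07 and 0.517 in PWD and 2.49, 2.35 and 4.31 in the F1, at position 69.7. H2-T24 and Scgb1b3 belong to families of closely related genes, between whose copies reads could be split, so their levels are uncertain.

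**Figure D2:**
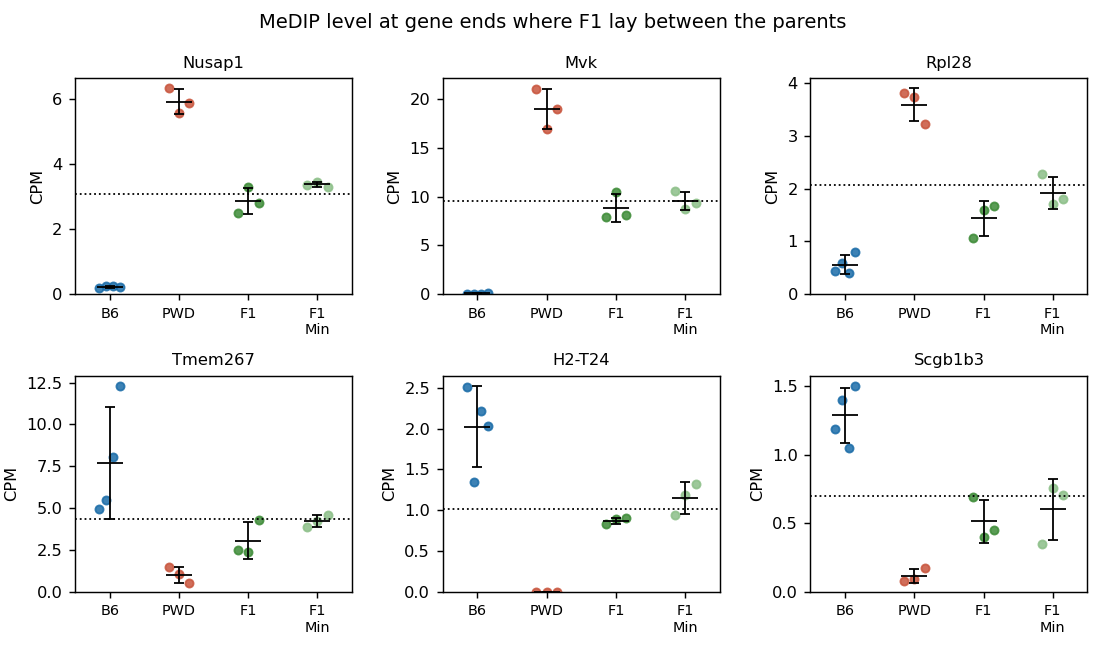
MeDIP level in CPM at 6 gene ends where the F1 lay between its parents, for each B6, PWD, F1 wild type and F1 Apc Min normal mucosa library (points), with mean ± SD (bars) and the parental mean (dotted line). F1 libraries of both genotypes lie between the parents, from about the midpoint at Nusap1 and Mvk (position 46.3) to nearer one parent at Rpl28 (29.1) and Tmem267 (69.7).

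Among the intermediate windows with the lowest p, all F1 means were below the midpoint in CPM. A window in Ccdc105 (chr10:78747001-78747250) gave 0, 0.0966, 0.151 and 0.0885 CPM in B6, 3.82, 2.8 and 2.8 in PWD and 1.25, 1.11 and 0.944 in the F1. In Txndc5, which encodes a protein disulfide isomerase, the window chr13:38528251-38528500 gave 0 in all B6 libraries, 2.13, 1.54 and 1.08 in PWD and 0.323, 0.444 and 0.27 in the F1. In Tex14, which is needed for the bridges between germ cells, chr11:87467751-87468000 was at position 27.7. The rule that ranked these windows favours those far from both parents, and of windows lower in PWD it named Skint6, Zdhhc14 and Eml4 at positions 69.4, 71.2 and 65.9. None of the 6 passed against the parental mean, with an adjusted p of 1 for each by edgeR.

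No window was called as like B6 or like PWD; the windows nearest to it, named after their values were seen, show what such a case looks like. In Myo3a, which encodes an unconventional myosin, chr2:22590001-22590250 gave 0.0879, 0.386, 0.0502 and 0.0885 CPM in B6 and 4.93, 5.51 and 5.04 in PWD. The F1 wild type libraries gave 0.323, 0.178 and 0.225, all within the range of B6, at position 1.79 ± 3.02 (SE; adjusted p = 0.304 against the parental mean, edgeR). F1 normal mucosa with Apc Min gave 0.197, 0.377 and 5.1, and F1 adenomas (samples 11_5, 16_6 and 18_2) gave 0.0998, 0 and 5.75. Samples 18_1 and 18_2 were thus at the level of PWD and the others at that of B6.

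A window in Zdbf2, an imprinted gene, split the same libraries. At chr1:63264501-63264750 B6 gave 0.835, 0.579, 0.954 and 0.929 CPM, PWD 0.473, 0.28 and 0.302 and the F1 wild type 0.0923, 0.0888 and 0.0449. The F1 lay below both parents, without passing against their mean (adjusted p = 0.328, edgeR). In F1 normal mucosa with Apc Min the values were 0.148, 0.189 and 1.05, and in F1 adenomas 0.349, 0.0906 and 1.37, again with 18_1 and 18_2 the highest.

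At gene ends, 4 were called against the parental mean (0.0332% of 12046; 704 at an unadjusted p under 0.05, 157 higher and 547 lower), of which Atmin and Gm38457 are described here. Atmin, which encodes a protein that interacts with the ATM kinase, gave 0.572, 0.435, 0.502 and 0.398 CPM in B6, 1.14, 0.887 and 0.991 in PWD and 0.185, 0.0888 and 0.0899 in the F1 (adjusted p = 0.0127, edgeR). It was the gene end called as like B6, since the F1 was not called apart from B6 (adjusted p = 0.0518), yet all F1 libraries lay below all B6 libraries. Its windows are shared with a neighbouring gene. No single window over its printed promoter passed the filter on low counts, so this level is that of the whole gene end. F1 normal mucosa with Apc Min gave 0.148, 0.283 and 1.23, with 18_1 at the level of PWD. Leaving out PWD 11_1, F1 11_4 or F1 16_4 ended the call against the mean (0.0548, 0.355 and 0.203).

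Gm38457, a predicted gene, gave 0.572, 1.01, 1 and 0.575 CPM in B6, 0.355, 0.56 and 0.776 in PWD and 0.231, 0.0888 and 0.0449 in the F1 (adjusted p = 0.028, edgeR). It was also lower than every parental library in the 3 F1 normal mucosa libraries with Apc Min, at 0.142 to 0.197 CPM, while F1 adenomas gave 1.85, 0.272 and 0.437. The call was lost without B6 16_8, B6 4_4, PWD 11_1, PWD 16_9, F1 11_4 or F1 16_4, at 0.0523 to 0.458.

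The only window called lay in Cldn8, which encodes a claudin of tight junctions, at chr16:88562251-88562500. B6 gave 0.704, 0.676, 0.703 and 0.354 CPM, PWD 1.3, 0.513 and 1.34 and the F1 0.185, 0.0444 and 0, with an adjusted p of 0.0147 against the parental mean by edgeR. F1 normal mucosa with Apc Min gave 0.148, 0.189 and 0.264, also below all parental libraries. Without PWD 11_1 or 16_9 the adjusted p was 0.113 and 0.115, and without F1 11_4 or 16_4 it was 1.

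The other windows with the F1 beyond all parental libraries and the lowest p did not pass. In Rhot2, which encodes a mitochondrial GTPase, chr17:25839501-25839750 gave 0.44, 0.29, 0.552 and 0.31 CPM in B6, 0.512, 0.42 and 0.431 in PWD and 0.0462, 0.0444 and 0.0449 in the F1 (adjusted p = 0.304 against the parental mean, edgeR). F1 normal mucosa with Apc Min gave 0.0987, 0.0472 and 0.132 there, and F1 adenomas 0.748, 0.498 and 0.562, which is at or above the parental level. Windows in Spsb1, Frmd6 and Mon1a were at 0.0154, 0.0148 and 0.0148 CPM on average in the F1, against 0.453, 0.372 and 0.291 in B6 and 0.424, 0.362 and 0.399 in PWD. F1 normal mucosa with Apc Min gave 0.0472 to 0.247, 0 to 0.0943 and 0.044 to 0.197 CPM there, and its highest library reached the parental range at Spsb1 and Mon1a. Of the windows above all parents, that nearest to Cyp4a12a (chr4:115281001-115281250, 17796 bp away) gave 0.132, 0.145, 0.151 and 0.177 CPM in B6, 0.158, 0.0467 and 0.172 in PWD and 0.415, 0.666 and 0.584 in the F1 (adjusted p = 0.466, edgeR). F1 tissue with Apc Min was also above every parental library at that window, from 0.296 to 0.571 CPM in normal mucosa and from 0.399 to 0.589 in adenomas. Other named windows above all parents lay 185357 bp from Foxl1 and 23128 bp from Runx1t1, their nearest genes. There F1 normal mucosa with Apc Min was above every parental library. In Cdh13 it gave 0.197, 0.189 and 0.0879 CPM, against a highest parental value of 0.176. In the window 28382 bp from Nap1l1 it gave 0.543, 0.283 and 0.308, against 0.386.

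Summing 10 windows to tiles of 2500 bp, an alternative added after the data were seen, called 2 of 840756 tiles, of which that in Nr5a2 is described here. The tile in Nr5a2 (chr1:136910001-136912500), a nuclear receptor gene active in intestinal crypts, gave 1.89, 1.93, 2.21 and 2.08 CPM in B6, 1.89, 1.77 and 2.11 in PWD and 0.785, 0.488 and 0.539 in the F1 (adjusted p = 0.0133, edgeR). The F1 with Apc Min was at 0.983 ± 0.0568 in normal mucosa (SD, n = 3), also below every parental library.

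No gene end passed as lying outside both parents (0%), with 162 at an unadjusted p under 0.05, 14 above and 148 below, and DESeq2 on the same libraries also called 0, with 97 at an unadjusted p under 0.05. Yet all 3 F1 libraries lay below all 7 parental libraries at 202 gene ends (1.68% of those tested) and above all of them at 65 (0.54%). For windows these shares were 0.546% below (6399) and 0.572% above (6702). Fitting only the 10 wild type libraries called 46 gene ends against the parental mean, 44 of them lower, and 5 as below both parents, among them Krt7, Hoxa5, Nradd and Elf3.

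Elf3, Krt7, Hoxa5 and Tet3, chosen after their values were seen, were among the 202; of the enterocyte and secretory lists, 1 of 25 and 0 of 22 measured genes lay below all parental libraries. Elf3, an ETS factor of epithelial cells whose promoter is printed above, gave 0.572, 0.676, 1.05 and 0.708 CPM in B6, 0.867, 0.607 and 0.733 in PWD and 0.231, 0.0888 and 0.225 in the F1 (adjusted p = 0.0959 against the parental mean, edgeR). Krt7, a simple epithelial keratin, gave 1.28, 1.45, 3.01 and 2.48 in B6, 2.05, 1.35 and 1.47 in PWD and 0.277, 0.444 and 0.449 in the F1 (0.0767). The F1 was below the lowest parental library in both. Each printed promoter is overlapped by a single tested window. The means there in B6, PWD and the F1 were 0.478, 0.513 and 0.105 CPM for Elf3 and 0.444, 0.426 and 0.0602 for Krt7. The Elf3 window (chr1:135258251-135258500) covers only the gene-start end of the printed stretch, and that of Krt7 (chr15:101412251-101412500) most of it. Hoxa5, a homeobox gene of regional identity, gave 0.879, 2.9, 2.96 and 1.95 in B6, 2.13, 1.68 and 2.24 in PWD and 0.6, 0.488 and 0.584 in the F1 (0.105). Tet3, an enzyme that oxidises 5-methylcytosine, gave 0.44, 0.386, 0.402 and 0.487 in B6, 0.434, 0.42 and 0.259 in PWD and 0.138, 0.0888 and 0.0449 in the F1 (0.0767). None of these passed against the parental mean in the main fit of all 46 libraries. In the fit of only the 10 wild type libraries all of them passed by edgeR. The adjusted p there was 5.71e-06 for Krt7, 4.99e-05 for Hoxa5, 0.0023 for Elf3 and 0.0416 for Tet3.

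**Figure D3:**
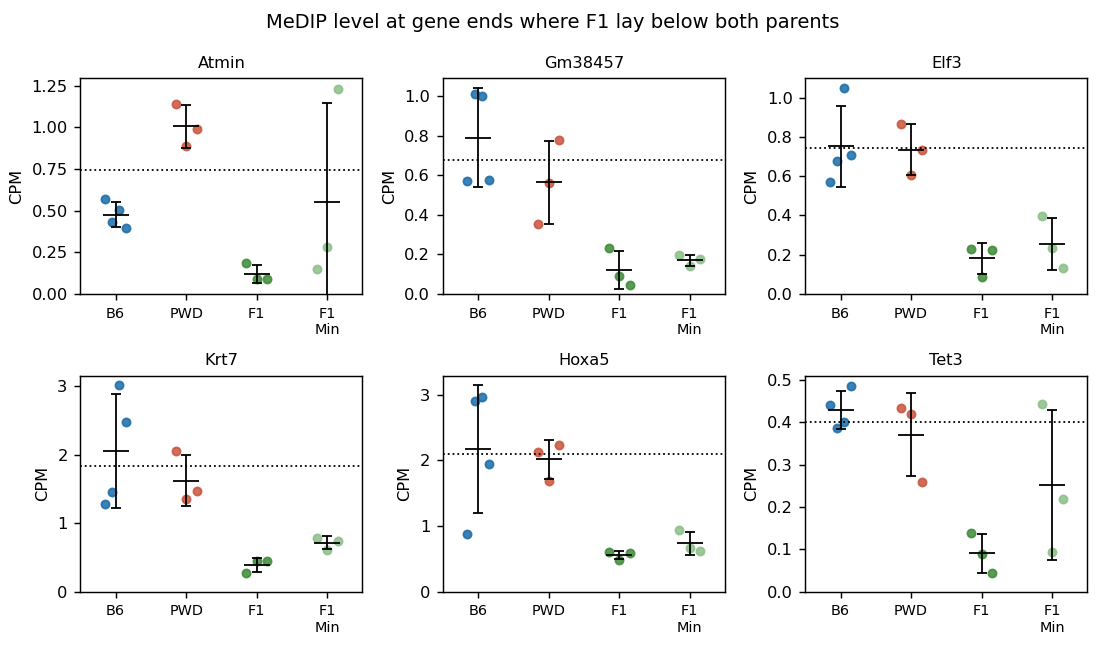
MeDIP level in CPM at 6 gene ends where all F1 wild type libraries lay below all 7 parental libraries, for each B6, PWD, F1 wild type and F1 Apc Min normal mucosa library (points), with mean ± SD (bars) and the parental mean (dotted line). The highest F1 wild type library at Krt7 gave 0.449 CPM, against 1.28 in the lowest parental library; at Atmin and Tet3 an F1 Apc Min library lies at the parental level (1.23 and 0.444 CPM).

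In windows, lower levels in the F1 went with CpG density, and the direction depended on which libraries were compared. In windows with a deposited CpG density score of 30 or more, the summed CPM of the F1 was 83.2% of the parental mean, against 102% at a score of 3 to 5. The median log2 ratio to the parental mean in these classes was -0.37 and 0.02 (483 and 346595 windows). The densest class was lower in every F1 library, at -0.63 for 11_3, -0.15 for 11_4 and -0.46 for 16_4. Within the only label number that all 3 groups share, 16, F1 16_4 against the mean of B6 16_8 and PWD 16_9 gave 0.15 at a score of 10 to 15, 0.19 at 15 to 20, 0.14 at 20 to 30 and 0.04 at 30 or more. At gene ends the median ratio was -0.04 at a score of 3 to 5 and -0.17 at 30 or more (39 gene ends). The share of gene ends below all parental libraries was 1.7% at 3 to 5, 2.39% at 7.5 to 10, 1.49% at 15 to 20 and 0% at 30 or more. Within number 16, gene ends gave 0.01 at 5 to 7.5, -0.03 at 10 to 15 and -0.2 at 30 or more. The label numbers may mark batches, which the labels do not say: PWD and the F1 share numbers 11 and 16, and B6 has 10, 16 and 4.

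Capture of CpG-dense DNA varied among the parental libraries themselves. Windows with a score of 10 or more took 7.18, 4.24, 6.34 and 7.12% of autosomal counts in B6, 6.16, 5.26 and 5.33% in PWD and 5.13, 5.78 and 5.55% in the F1. The groups overlapped, and the F1 mean of 5.49 ± 0.331% (SD, n = 3) differed from the mean of the 7 parental libraries by -0.459 percentage points (2-sided exact permutation p = 0.5 over 120 arrangements, smallest possible 0.00833); within number 16 the difference was 0.772. Summed levels over marker gene ends were measured beside this. For 6 epithelial markers the sum was 1.54 to 2.66 CPM in B6, 2.37 to 3.11 in PWD and 1.15 to 1.75 in the F1, and for 6 leukocyte markers 8.84 to 9.49, 10.6 to 12.5 and 8.97 to 10.2, with no marker of either list at 0. For 5 markers of stroma and muscle, 1 of them at 0, the sum was 2.56 to 4.87, 3.87 to 5.17 and 2.56 to 4.31, and for 3 endothelial markers 2.39 to 3.51, 2.05 to 3.06 and 2.53 to 2.86. MeDIP gives no expression, so the labelled tissue was checked only by these sums; each library had less capture at the epithelial than at the leukocyte markers, over regions of equal length. The part of CpG-dense capture or of cell composition in the lower gene ends was not tested.

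**Figure D4:**
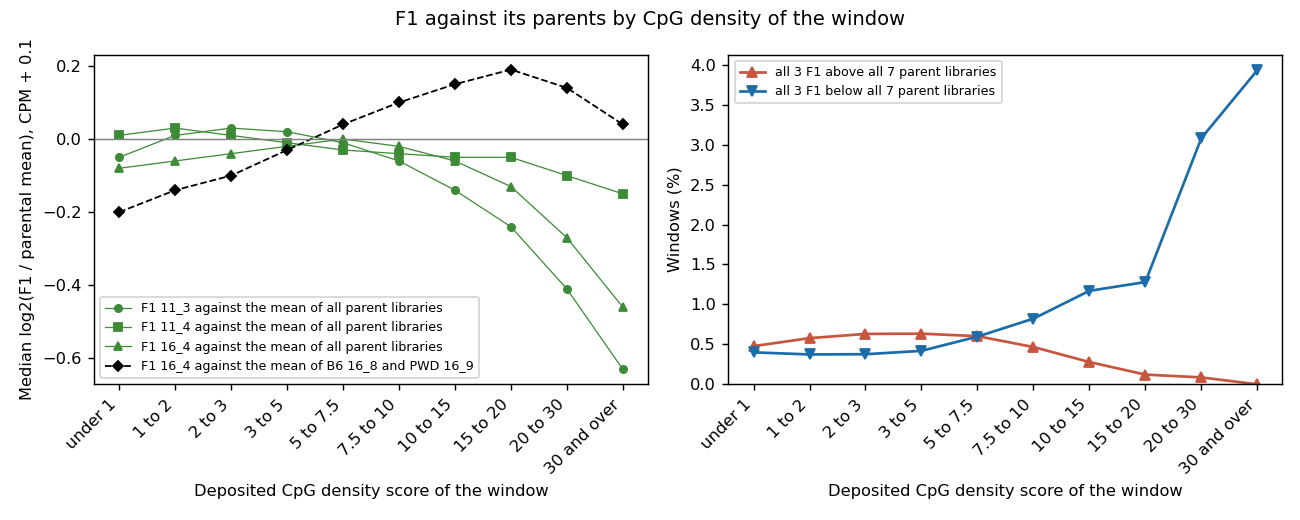
Left, median log2 ratio of each F1 library to the parental mean by deposited CpG density score of the window (green), and of F1 16_4 to B6 16_8 and PWD 16_9 alone (black, dashed), with 0.1 CPM added. Right, percent of windows where all 3 F1 libraries lay above (red) or below (blue) all 7 parental libraries; the share below reached 3.93% in the densest class, where none lay above, while the black line stays above 0 from a score of 5 upwards.

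In windows with parents far apart, the densest classes were also where the F1 left the midpoint. At a score of 30 or more, the F1 libraries stood at 24.7, 44.2 and 32.6 over the 76 windows with more capture in PWD and at 81.6, 56.5 and 72.1 over the 70 with less, nearer to the lower parent in both. The F1 normal mucosa with Apc Min stood at 60.2, 35.6 and 56.8, and at 18.4, 64.9 and 44.2, on both sides of the midpoint. At a score of 5 to 7.5, with 16910 and 41855 windows, the F1 wild type means were 48.3 ± 0.611 and 47.7 ± 1.07 (SD, n = 3).

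Gene lists gave few calls. Of 14 lists fitted to intestinal mucosa, cell types and methylation, no measured member was called against the parental mean or outside both parents. Over all 12046 gene ends, the median log2 ratio of F1 to the parental mean was -0.07, and 1.68% lay below all 7 parental libraries and 0.54% above. This median depended on the scaling: it was -0.02 with scaling on the gene ends themselves and -0.01 with scaling in classes of CpG density. In that order, the list medians were -0.4 and -0.41 for xenobiotic and bile acid and -0.22 and -0.18 for homeobox genes. They were -0.13 and -0.09 for germline, -0.09 and -0.07 for imprinted and -0.15 and -0.13 for enterocyte genes. With F1 Apc Min normal mucosa in place of the wild type, the median over all gene ends was -0.02, and those of the lists were -0.19 for xenobiotic and bile acid, 0.01 for homeobox, 0.08 for DNA methylation machinery, -0.01 for imprinted, 0 for germline and -0.14 for enterocyte genes. Among genes of xenobiotic and bile acid handling, 20 of 36 were measured, the median was -0.44 and 3 lay below all 7 parental libraries: Slc51a and Slc51b, the subunits of the bile acid exporter, and Cyp2s1, a cytochrome P450. Slc51a gave 0.308, 0.338, 0.602 and 0.442 CPM in B6, 0.394, 0.513 and 0.603 in PWD and 0.231, 0.266 and 0.0449 in the F1. Among homeobox genes, 62 of 92 were measured, with a median of -0.26 and Hoxa5, Gbx2 and Cdx1 below all parental libraries. Of the DNA methylation machinery, 17 of 29 were measured at a median of -0.07, with Tet3, Zfp57, which binds imprinted regions, and the glycosylase Mbd4 below.

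Imprinted genes showed no call against the parental mean: 44 of 60 were measured at a median of -0.14, with Ndn and Nap1l5 below all parental libraries and Impact above. Ndn gave 1.06, 0.869, 0.803 and 1.28 CPM in B6, 1.46, 0.84 and 1.29 in PWD and 0.692, 0.755 and 0.764 in the F1, a narrow gap to the lowest parent. Germline genes, many of them methylated in somatic tissue, had 50 of 56 measured at a median of -0.18 and none beyond all parental libraries. For enterocyte genes, with 25 of 34 measured at a median of -0.17, Krt8 lay below and Slc2a2, the glucose transporter GLUT2, above. Slc2a2 gave 1.36, 1.11, 1.1 and 1.19 in B6, 1.22, 1.49 and 1.08 in PWD and 1.8, 1.69 and 1.62 in the F1 (adjusted p = 0.743, edgeR). Wnt targets and stem cell genes had 25 of 40 measured at -0.09, with Ctnnb1, which encodes beta-catenin, below.

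The other lists held no member beyond all parental libraries. Their medians were -0.08 over 22 of 32 genes of the secretory lineage, 0.06 over 31 of 35 of B and T lymphocytes, -0.07 over 20 of 25 myeloid, -0.14 over 18 of 26 of stroma and muscle, 0.05 over 13 of 18 endothelial, -0.13 over 22 of 35 histocompatibility and -0.17 over 7 of 20 housekeeping genes. Muc2, the goblet cell mucin, gave 0.22, 0.579, 0.753 and 0.575 CPM in B6, 0.552, 0.7 and 0.56 in PWD and 0.138, 0.266 and 0.27 in the F1, overlapping only B6 10_1. Over all lists 375 genes were measured. Against B6, 7 were called (1.87%, against 1.98% of all gene ends), all lower in the F1: Ddc, Tet3, Gbx2, Hoxa5, H2-T24, Cyp2s1 and Cyp2d22. Against PWD, 8 were called (2.13%, against 1.59%): Zp2, H2-Q6 and H2-T24 were higher, and Tet3, Pdx1, Hoxa6, Blnk and H2-Q10 lower. The count against B6 was 4 without B6 4_4 and 3 without F1 16_4, and that against PWD fell to between 2 and 4 without any PWD library or without F1 11_4 or 16_4.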

How the data were processed

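MeDIP libraries of 15 groups of strain and tissue were deposited as 1 table of raw read counts in 10535096 windows of 250 bp, per the file headers, beside a CpG density score of each window from the authors; the sources used here do not state its scale. The submitters' processing notes name BWA and mm10 for the alignment, without a BWA version; read filters and the counting software: not given in the sources used here. The labels name 54 samples, of which 46 MeDIP libraries and 1 input library have a column. No window exceeded 500 counts.

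The tests ran in R 4.3.3 with the legacy quasi-likelihood F test of edgeR 4.0.16, which calls limma 3.58.1. The filter on low counts, filterByExpr at a minimum of 10, kept 1172069 autosomal windows (11.9%). Libraries were scaled by TMM on the windows, and all 46 libraries entered 1 fit with a mean per group. Against the parental mean, the test set the F1 level equal to the arithmetic mean of the parental levels; outside both parents took the larger p of the F1 against each parent where the signs agreed. P-values were adjusted by Benjamini-Hochberg across all windows or all gene ends, at a threshold of 0.05. The tests were also run on simulated counts. These held no shifts in CpG-dense capture between libraries or label numbers, so that run cannot show how such shifts affect the p-values. DESeq2 1.42.0 was an alternative for gene ends. Gene positions, strands and promoters came from RefSeq tables of GRCm38.p6; 2683 gene ends share windows with another gene's. The medians of log2 ratios use CPM plus 0.1. Counting error, the spread estimated over all 46 libraries and the 3 or 4 libraries per group set the precision.

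Windows and gene ends were named by the lowest p in each class and direction, up to a fixed number, and up to 2 per gene list. Others were chosen after their values were seen. Of the intermediate gene ends, only Nusap1, Rpl28, H2-T24 and Scgb1b3 were named by the rule. The others described, among them Mvk, Mmab, Trim25, Hyou1, Myd88, Mat2a and Tmem267, were chosen after their values were seen. Members, gene lists and tests were chosen with earlier results of these data known. The F1 libraries with Apc Min are shown beside the results. They enter the filter, the scaling and, only for its spread, the common fit. Chromosomes X and Y and the input library were not analysed here. Some genes are not reported here.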

Additional observations from a re-analysis of the deposited data

Results flagged for a closer look

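Groups of 4 B6 libraries were examined at the named windows and gene ends, and for total counts and the CpG-dense part of counts. Of 63 groups, 5 held a library far from the other 3. This was judged by the gap to its nearest neighbour as a share of the group's range. Chance alone gives about 1 in 20. Groups of 3 were not examined. At the Cldn8 window the share was 0.921, with a B6 library at 0.354 CPM against 0.676 to 0.704. At the Myo3a window it was 0.886, with 0.386 CPM against 0.0502 to 0.0885. At the Skint6 window it was 0.897, with 1.46 CPM against 1.2 to 1.23. At the Eml4 window it was 0.896, with 1.56 CPM against 1.98 to 2.03. At the window nearest to Nap1l1 it was 0.83, with 0.386 CPM against 0.133 to 0.176.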

How the results depend on the processing

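Leaving out each of the 10 libraries gave 172338 to 228958 windows between the parents, 6890 to 15371 for the F1 against B6, 21628 to 44097 against PWD and 0 to 2 against the parental mean, with 249 to 1659 intermediate. For gene ends the ranges were 1039 to 1420, 125 to 241, 73 to 200 and 0 to 7, with 12 to 43 intermediate and 0 to 2 like B6. Called list members ran from 3 to 8 against B6 and from 2 to 9 against PWD. The mean position ran from 45.8 to 51.1 and from 46.3 to 50, and the difference in CpG-dense share from -0.744 to -0.253.

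In a fit of only the 10 wild type libraries, 55 windows (1 higher, 54 lower) and 46 gene ends passed against the parental mean, 5 gene ends as outside both, 314 against PWD, 2675 windows and 74 gene ends as intermediate, 11 windows and 5 gene ends as like B6 and 1 of each as like PWD. That fit called 5 list members against the mean, 1 outside both and 17 against PWD. A minimum count of 20 left 76373 windows between the parents, 6658 against B6, 20387 against PWD and 0 against the mean. With the label number added as a factor on the log scale, the windows were 116063, 1544 and, against the mean, 2522 (2035 higher, 487 lower), the gene ends 805, 137, 464 and 62, and list members 6 against the mean and 24 against PWD. Tiles gave 115585, 5333, 14355 and 2. The geometric mean gave 1612 windows, 33 gene ends and 2 list members; no filter gave 12 gene ends and 2 members. DESeq2 called 131 gene ends and 3 members against B6 and 92 and 4 against PWD. The newer quasi-likelihood fit gave 2390 intermediate windows. With regions of 2000 bp either side, 0 gene ends passed against the mean, and no gene end was like B6 there, under total counts, or under scaling on gene ends or by CpG density (0 each); the last also left 0 windows against the mean. With the F1 Apc Min normal mucosa in place of wild type, 0 windows and 2 gene ends passed against the mean, with 19 intermediate and 0 like B6 gene ends and 3 and 4 list members. The cause was not tested for any of these.

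Differences from the parental mean that changed sign without passing were, with Apc Min libraries, Mbd4 0.129, Fcer2a 0.294, Prox1 0.0523, Tap1 -0.108, Ywhaz -0.151 and Gusb 0.027 CPM. Within number 16 they were H2-T24 0.223, Elane 0.0577, Lyve1 -0.121 and Ywhaz -0.489 CPM and the CpG-dense share at 0.772. Ywhaz was also at -0.0748 with the number factor, which is a log2 difference from the geometric mean. In CPM it was at -0.0098 with the wider region, and between -0.0113 and 0.363 when a library was left out, the lowest without F1 11_4. No paired analysis was possible because no full sample number, such as 16_8, occurs in more than 1 group; the label number used as a factor is its leading part. Counts per window are low, so single windows limit what could be called.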
